A study of Homo sapiens with 4 samples.

Results

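Genes of voltage-gated channels and of potassium channels in HepG2 cells are described here. Members were the symbols of potassium channel subunits (KCN followed by letters and a number), of voltage-gated sodium channels (pore subunits SCN with a number and A, beta subunits SCN with a number and B) and of voltage-gated calcium channels (CACNA, CACNB, CACNG and CACNA2D) whose normalized counts averaged 1 or more over the 4 libraries. A normalized count is the read count divided by the size factor of the library. Of 30863 genes in the table, 103 symbols had this form and 79 of them reached the mean of 1. The values that chose the members were thus their mean levels, so the levels are given as a description. A low gene could also enter through reads in 1 group alone, so counts over the members describe this list and support nothing further. Just inside the limit stood KCNH1, with a mean of 1.004, and KCNE1, with 1.24. Just outside it stood KCNG1, with 0.979, and SCN3A, with 0.978.

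Poly(A) RNA of HepG2, an established human liver cancer line that the labels call wild type and hepatoblastoma, was sequenced without keeping strand. The groups were cells given the solvent DMSO and cells given AMF (amentoflavone, a plant biflavonoid), each for 48 h and each with 2 libraries (replicates 1 and 2). For the treatment, 90 µM AMF stands in the protocol but 80 µM of an agent named Tub B in the design text, so compound and dose are uncertain and AMF is the name that the samples carry. Whether replicates came from separate cultures is not stated, so p-values reflect only the scatter among these 4 libraries, which could be technical. Library totals ran from 24226586 to 26966210 reads, and the share of reads in all matching channel symbols was small in every library, from 0.0350% to 0.0493% of the normalized counts. Reads were found for 23929 and 24108 genes in DMSO and for 25985 and 25632 genes in AMF. All 13 hepatocyte markers on a list were present, with summed levels of 559460 and 539760 in DMSO and 432410 and 411340 in AMF, 7 of them lower and 2 higher. In a bulk sample, fewer cells with a transcript and less of it per cell cannot be told apart.

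Voltage-gated channels are membrane pores that open when the membrane voltage changes, and they let sodium, calcium or potassium ions pass. Pore-forming subunits carry the voltage sensor and the ion filter, and auxiliary subunits bind them and change their gating or their transport to the surface. Potassium channels also include inward rectifiers, tandem-pore channels that set the resting potential, and channels opened by calcium or sodium inside the cell. They are best known from nerve, heart and muscle, and in liver cells potassium channels take part in volume control and bile formation.

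To show where the transcripts start that changed most, the 150 bases before the annotated start are printed for 3 sodium channel pore genes that fell (SCN9A, SCN1A and SCN8A), for 2 sodium channel beta genes that rose (SCN2B and SCN4B) and for the calcium channel gene CACNA1A, which had no reads in DMSO. They come from RefSeq on GRCh38.p14, another build than the one named for these files, and are written 5′ to 3′ along the gene. Capitals mark the GC box GGGCGG on either strand, bound by SP1-type factors. SCN1A has 2 annotated starts.
SCN9A, chr2:166375945-166376094, minus strand: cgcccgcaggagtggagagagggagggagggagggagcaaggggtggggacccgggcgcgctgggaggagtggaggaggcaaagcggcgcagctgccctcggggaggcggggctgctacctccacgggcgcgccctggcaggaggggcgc
SCN1A, inner start, chr2:166128021-166128170, minus strand: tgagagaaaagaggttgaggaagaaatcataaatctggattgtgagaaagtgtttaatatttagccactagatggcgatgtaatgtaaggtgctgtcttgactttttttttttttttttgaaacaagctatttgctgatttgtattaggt
SCN1A, outer start, chr2:166149162-166149311, minus strand: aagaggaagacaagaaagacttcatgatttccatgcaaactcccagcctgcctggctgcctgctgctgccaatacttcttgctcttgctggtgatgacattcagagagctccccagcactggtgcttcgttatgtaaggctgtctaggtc
SCN8A, chr12:51591083-51591232, plus strand: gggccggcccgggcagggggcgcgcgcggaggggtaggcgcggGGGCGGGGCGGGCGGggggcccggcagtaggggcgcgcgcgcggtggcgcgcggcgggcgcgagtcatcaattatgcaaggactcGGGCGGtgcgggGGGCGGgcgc
SCN2B, chr11:118176640-118176789, minus strand: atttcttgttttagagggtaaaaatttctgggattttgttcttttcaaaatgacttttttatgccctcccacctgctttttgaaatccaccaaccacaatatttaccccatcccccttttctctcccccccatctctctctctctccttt
SCN4B, chr11:118145434-118145583, minus strand: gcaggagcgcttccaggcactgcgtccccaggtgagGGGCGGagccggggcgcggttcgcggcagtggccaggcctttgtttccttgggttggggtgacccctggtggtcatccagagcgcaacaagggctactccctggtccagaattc
CACNA1A, chr19:13506480-13506629, minus strand: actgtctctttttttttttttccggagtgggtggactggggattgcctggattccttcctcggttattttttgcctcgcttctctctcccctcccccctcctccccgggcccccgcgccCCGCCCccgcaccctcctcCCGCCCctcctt
The bases before SCN8A held 5 GC boxes, some of which overlap, and 28 CG dinucleotides, those before CACNA1A 2 and 9, and those before SCN4B 1 and 9. No GC box stood in the 150 bases before SCN9A, SCN1A or SCN2B (SCN9A has one in its 250-base window), with 13 CG dinucleotides for SCN9A, 1 in each window of SCN1A and 0 for SCN2B. Over 250 bases before the start, 54 of the 79 members had an entry, and 40 of these (74.1%) held a GC box, against 46.2% of all 27305 genes with an entry and 69.3% of the 12015 among the genes tested. The core GCGTG of the element bound by the aryl hydrocarbon receptor, searched on both strands, stood in 21 of the 54 (38.9%), against 36.2% of all genes with an entry and 50.0% of those tested. Among members past the threshold, it was found before 4 of 11 that rose (CACNB2, CACNB4, KCNAB1 and KCNAB2) and 1 of 5 that fell (KCNJ10). TTCAGCACC, a part of the element bound by the repressor REST, stood before KCNH6 and KCNK3, neither past the threshold, and before 0.4% of all genes. A match is a description of letters and not a measured binding site.

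AMF was set against DMSO to ask which channel transcripts were at another level after 48 h. Of the sodium channel pore genes, 4 of 6 were lower, the 10 calcium channel subunits that passed the test were all higher, and potassium channel genes went in both directions. Of the 79 members, 28 passed an adjusted p of 0.05 with limma-trend (35.4%), while 31.8% of all 23828 genes tested did. The 28 were 19 higher (24.1%, against 15.6% of all genes tested) and 9 lower (11.4%, against 16.2%). With a further limit of 1 on the size of the log2 change, 13 were higher and 4 lower, where the shares over all genes were 4.96% and 2.05%. Both AMF libraries lay above both DMSO libraries in 36 members (45.6%, background 33.8%) and below them in 16 (20.3%, background 29.7%), and the groups overlapped in 27. The median log2 change was 0.53 over the members and 0.0355 over all genes tested, but the median changed with the level of the genes and with the scale, as given in the closing section.

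**Figure D1:**
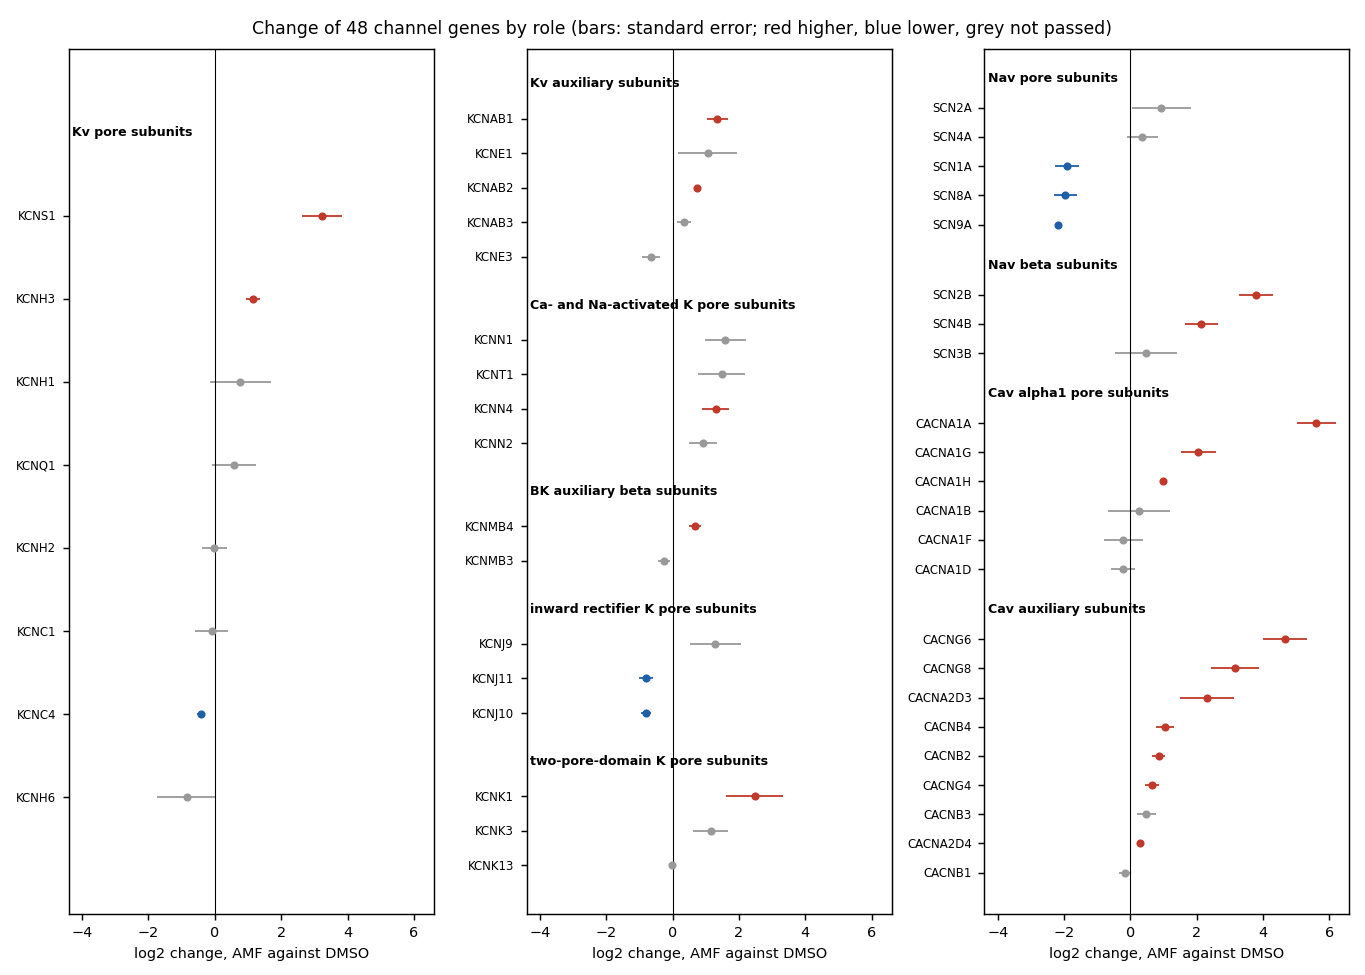
Log2 change of AMF against DMSO (horizontal axis) with its standard error for the 48 channel genes named in the text, grouped by role and ordered by change, red for genes that rose, blue for genes that fell and grey for genes that did not pass. The sodium channel pore class holds 3 of the falls drawn, and the calcium channel classes hold 10 of the rises.

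Level and direction went together over all genes as well as over the members. Among 33 members with a mean of 1 to under 10, 3 rose and 1 fell, where 4.38% and 0.827% of all genes at that level did. Among 33 members with a mean of 10 to under 100, 11 rose and 3 fell, where 15.7% and 6.99% of all such genes did. Of 13 members with a mean of at least 100, 5 rose and 5 fell, against 23.6% and 31.1% of all such genes. The median log2 change in these 3 ranges was 0.87, 0.40 and -0.17 for the members, and 0.29, 0.12 and -0.0397 for all genes tested.

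**Figure D2:**
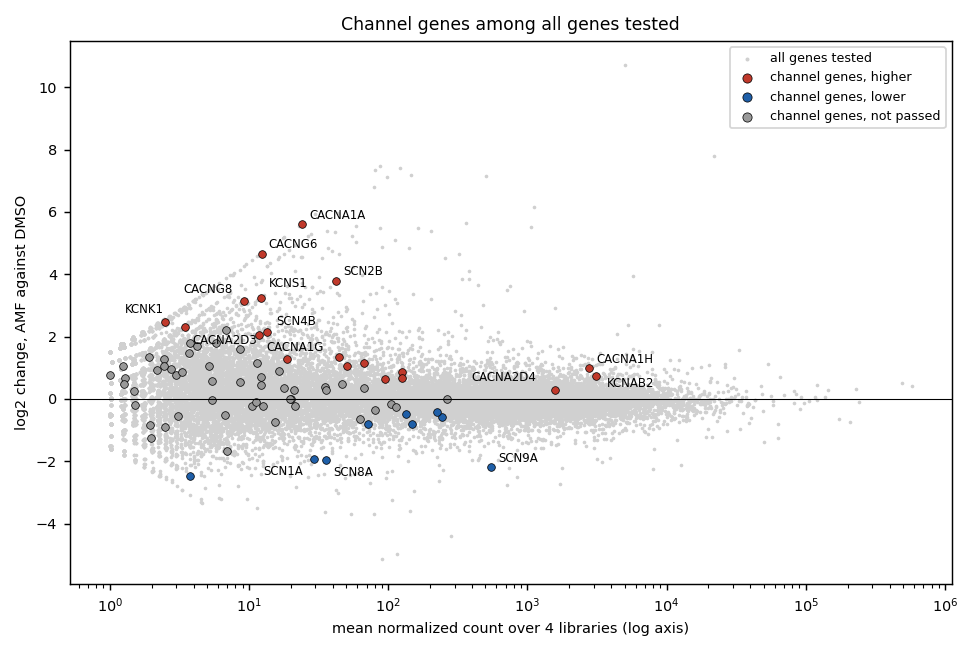
Log2 change (vertical axis) against the mean normalized count over 4 libraries (horizontal log axis) for all genes tested (small grey points) and for the channel genes (large points, red higher, blue lower, grey not passed). CACNA1A and CACNG6 lie at the upper edge because both DMSO libraries held 0 reads, and of the 4 highest channel genes SCN9A is the one that fell.

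Among the 6 sodium channel pore subunits, 4 fell (SCN9A, SCN8A and SCN1A among them), 0 rose and 2 did not pass. Of all genes tested, 16.2% fell. SCN9A, the pore of the sodium channel known from pain-sensing neurons, had 909.7 and 888 normalized counts in DMSO replicates 1 and 2 and 207 and 186 in AMF replicates 1 and 2. Both AMF libraries were far below both DMSO libraries, whose values lay close together. The log2 change was -2.19, SE 0.0932, with adjusted p = 4.77e-10 by limma. SCN8A, a pore subunit of axon initial segments, had 59.0 and 54.4 in DMSO and 10.2 and 18.5 in AMF, a difference of -1.96 on the log2 scale (SE 0.349, adjusted p = 4.93e-04). SCN1A, a pore subunit of inhibitory neurons, had 53.0 and 41.1 in DMSO and 9.29 and 14.4 in AMF, a difference of -1.92 on the log2 scale (SE 0.364, adjusted p = 8.47e-04). In both genes every AMF value was under every DMSO value.

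The muscle pore subunit SCN4A, with 8.997 and 23.6 in DMSO and 17.6 and 20.6 in AMF, did not pass, nor did SCN2A, a pore subunit of excitatory neurons, with a mean of 2.19. SCN1A and SCN9A are direct neighbours among coding genes on chromosome 2. Exons of both overlap an antisense RNA there, AC010127.1, over 2.77% and 8.17% of their length, and without strand its reads cannot be told from theirs. Exons of SCN8A overlap those of AC068987.2 over 896 bases.

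Summed over all matching sodium channel pore symbols, the level was 1045 and 1013 in DMSO and 251 and 245 in AMF, an AMF to DMSO ratio of 0.241. SCN9A made up 87.1% and 87.6% of that sum in DMSO and 82.6% and 76.1% in AMF. Without SCN9A the sum was 135 and 125 in DMSO and 43.6 and 58.7 in AMF, so the other pore genes together were lower too.

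**Figure D3:**
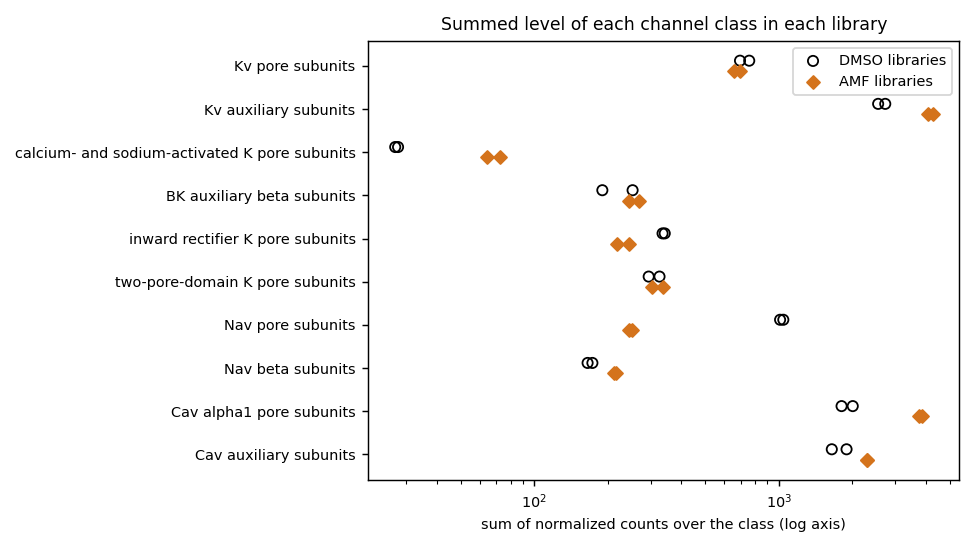
Sum of normalized counts over each class of channel subunits (horizontal log axis) in each library, open circles for DMSO and filled diamonds for AMF. The sodium channel pore sum is lower in both AMF libraries, while the sums of sodium channel beta, calcium channel alpha1, calcium channel auxiliary and Kv auxiliary subunits are higher in both.

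Sodium channel beta subunits, single-pass membrane proteins that modulate the pore and act in cell adhesion, did not follow the pore genes. SCN2B and SCN4B rose, and SCN3B, with a mean of 1.26, did not pass. SCN2B had 10.00 and 2.05 in DMSO and 80.8 and 77.3 in AMF, a difference of 3.79 on the log2 scale (SE 0.504, adjusted p = 3.81e-05). The DMSO libraries differed among themselves, and the change was 4.71 without DMSO replicate 1 and 2.86 without DMSO replicate 2. SCN4B had 5.998 and 3.08 in DMSO and 21.4 and 23.7 in AMF, a difference of 2.14 on the log2 scale (SE 0.505, adjusted p = 0.00435). SCN2B and SCN4B are direct neighbours on chromosome 11. The sum over all matching beta symbols was 173 and 165 in DMSO and 216 and 212 in AMF.

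Calcium channel alpha1 subunits form the calcium pore. Of 6 members, 3 rose (CACNA1A, CACNA1G and CACNA1H), 0 fell and 3 did not pass, while 15.6% of all genes tested rose. CACNA1H, a pore of low-voltage-activated (T-type) channels, was the member with the second highest level per length, at 323 normalized counts per kb of merged exons. It had 1772 and 1965 in DMSO and 3650.2 and 3748 in AMF, a difference of 0.99 on the log2 scale (SE 0.0574, adjusted p = 1.05e-08). The groups lay far apart. CACNA1H made up at least 97.2% of the alpha1 sum in each library, and that sum had an AMF to DMSO ratio of 1.99. CACNA1G, another T-type pore, had 2.999 and 5.13 in DMSO and 16.7 and 22.7 in AMF, a difference of 2.05 on the log2 scale (SE 0.523, adjusted p = 0.0073).

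CACNA1A, the pore of P/Q-type channels of nerve terminals, had 0 reads in both DMSO libraries and 39.0 and 57.7 normalized counts in AMF. Set against a floor of 3 reads for both DMSO libraries together, the AMF level was at least 31.5-fold higher, and adjusted p was 4.24e-06 with limma. Its fitted log2 change, 5.60 by limma-trend and 6.55 by voom, depends on the value that stands for 0 reads. The L-type pores CACNA1D (mean 21.4) and CACNA1F (mean 10.6) did not pass, with log2 changes of -0.23 and -0.21 and overlapping groups. CACNA1B, the N-type pore, had a mean of 1.49 and did not pass. The last exons of CACNA1H overlap those of the tryptase gene TPSG1 over 1.42% of its length, and TPSG1 had 11.996 and 13.3 in DMSO and 52.9 and 65.9 in AMF.

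Among the auxiliary subunits of calcium channels, 7 of 10 members rose, 0 fell and 3 did not pass, while 15.6% of all genes tested rose. The calls of CACNG8, CACNG4 and CACNA2D3, counted here, ended under other settings, as given below. CACNA2D4, of the alpha2delta family that brings the pore to the surface, had the highest level of the class at 206 normalized counts per kb. It had 1308 and 1520.5 in DMSO and 1750.3 and 1722 in AMF, a difference of 0.30 on the log2 scale (SE 0.0702, adjusted p = 0.00402). The beta subunit CACNB2, which binds the pore inside the cell, had 73.0 and 106 in DMSO and 142 and 178 in AMF, a difference of 0.85 on the log2 scale (SE 0.196, adjusted p = 0.00367). The beta subunit CACNB4 had 41.0 and 25.7 in DMSO and 64.1 and 72.1 in AMF, a difference of 1.04 on the log2 scale (SE 0.277, adjusted p = 0.0093). The beta subunits CACNB1 (-0.17, overlapping groups) and CACNB3 (0.48, both AMF values above both DMSO values) did not pass, so the beta family was not uniform.

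The gamma subunits CACNG6 and CACNG8, neighbours on chromosome 19, rose from almost nothing. CACNG6, linked to calcium channels of muscle, had 0 reads in both DMSO libraries and 20.4 and 28.8 normalized counts in AMF. By the same floor this was 16.1-fold higher, and the 95% exact interval began at 12.6, with adjusted p = 6.61e-05 by limma. CACNG8, which also serves AMPA-type glutamate receptors, had summed reads of 3 in DMSO and 35 in AMF, which is 11.3 times as many per unit of depth (3.55 to 57.2 as the 95% exact interval). Its adjusted p was 0.00358 by limma-trend, and its log2 change of 3.15 was 2.14 without DMSO replicate 1, which ended the call (adjusted p = 0.0724), and 4.17 without DMSO replicate 2. CACNG7, the coding neighbour of CACNG8 on its other side, had 1 read in all. CACNG4 had 89.0 and 60.6 in DMSO and 123 and 108 in AMF (0.65, adjusted p = 0.0277 by limma), a call that ended with a pseudocount of 0.1 (adjusted p = 0.059) and without the filter (0.0686). CACNA2D3 had summed reads of 1 in DMSO and 13 in AMF, or 12.5 times as many per unit of depth (1.88 to 532.7 as the 95% exact interval). Limma-trend called it higher (adjusted p = 0.0442), and voom did not (0.0963). With a pseudocount of 0.1 the calls of CACNG8 and CACNA2D3 ended too (adjusted p = 0.05, just over the threshold before rounding, and 0.088). CACNG8, CACNG4 and CACNA2D3 were singled out after their values were seen.

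Voltage-gated potassium channel pores (Kv) were the largest class, with 23 members. Of these, 2 rose (KCNS1 and KCNH3), 2 fell, KCNC4 among them, and 19 did not pass. Of all genes tested, 15.6% rose and 16.2% fell. Most of the class had a mean under 10, a level at which 4.38% of all genes rose and 0.827% fell. KCNC4, a Kv pore of fast kinetics, had 254 and 259.7 in DMSO and 199 and 185 in AMF. The difference was -0.42 on the log2 scale (SE 0.118, adjusted p = 0.0137 by limma-trend). KCNC1, of the same family, had a mean of 11.2 and did not pass (-0.0975). KCNH3, of the ether-a-go-go family, had 45.0 and 38.0 in DMSO and 94.7 and 91.7 in AMF, a difference of 1.15 on the log2 scale (SE 0.219, adjusted p = 8.62e-04).

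KCNS1, a silent subunit that forms no channel alone but modifies others, had summed reads of 3 in DMSO and 48 in AMF, which is 15.4 times as many per unit of depth (4.97 to 77.4 as the 95% exact interval), with adjusted p = 6.49e-04 by limma. KCNH2, the cardiac pore often measured in drug safety tests, had 21.0 and 18.5 in DMSO and 19.5 and 19.6 in AMF. The groups overlapped, with a log2 change of -0.0113 (SE 0.37). The class sum was 695 and 758 in DMSO and 694 and 657 in AMF, with both AMF sums under both DMSO sums and a ratio of 0.930.

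Auxiliary subunits of Kv channels were led by KCNAB2, a beta subunit with the fold of an aldo-keto reductase, which had the highest level per length of all members at 328 normalized counts per kb. KCNAB2 had 2473 and 2255 in DMSO and 3969.6 and 3811 in AMF, a difference of 0.72 on the log2 scale (SE 0.0553, adjusted p = 1.72e-07). Its relative KCNAB1 had 33.0 and 17.5 in DMSO and 53.9 and 73.1 in AMF, a difference of 1.35 on the log2 scale (SE 0.327, adjusted p = 0.00521). KCNAB3, the third of the family, had 59.0 and 58.5 in DMSO and 73.4 and 76.2 in AMF and did not pass (0.34, adjusted p = 0.243). Of 10 members in the class, 2 rose, 0 fell and 8 did not pass, while 15.6% of all genes tested rose and 16.2% fell. The single-pass subunit KCNE3, which opens the KCNQ1 pore in epithelia, had 55.0 and 103 in DMSO and 48.3 and 46.4 in AMF and did not pass (-0.66, adjusted p = 0.0893). KCNQ1 itself had a mean of 5.46 and did not pass.

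**Figure D4:**
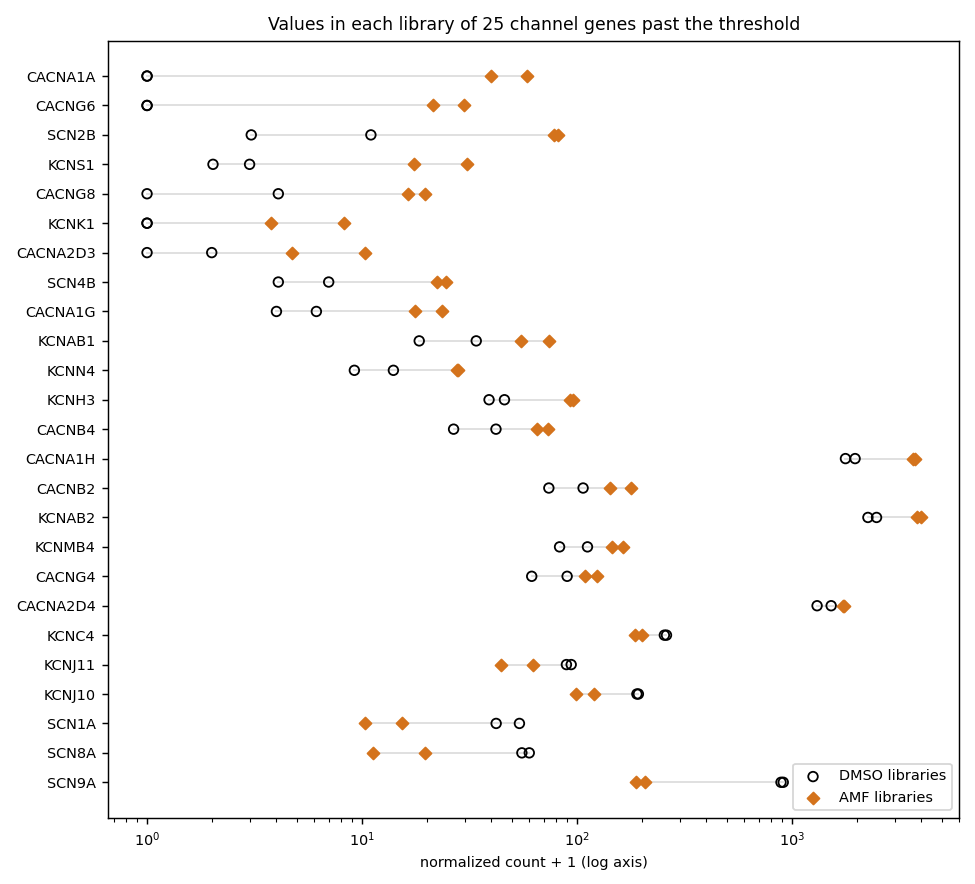
Normalized count + 1 (horizontal log axis) in each library for 25 of the 28 channel genes past the threshold, ordered by log2 change, open circles for DMSO and filled diamonds for AMF. The groups do not overlap in any of these 25, but these genes were chosen by a test on the same libraries. Their separation therefore adds no support to the calls. CACNA1A, CACNG6 and KCNK1 have both DMSO circles at 0 reads.

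Potassium channels opened by calcium or sodium were present at low level. Both AMF values lay above both DMSO values in all 4 members, as they did in 33.8% of all genes tested. KCNN4, the intermediate-conductance channel of blood cells and epithelia, was the one that passed, with 13.0 and 8.21 in DMSO and 26.9 and 26.8 in AMF, a difference of 1.29 on the log2 scale (SE 0.411, adjusted p = 0.0259), which became 0.0591 without the filter on low values. The small-conductance channels KCNN1 (1.59, adjusted p = 0.059) and KCNN2 (0.91, adjusted p = 0.116) and the sodium-activated KCNT1 (1.48, adjusted p = 0.135) did not pass. The class sum was 27.0 and 27.7 in DMSO and 72.4 and 63.9 in AMF. KCNMB4, a beta subunit of the large-conductance calcium-activated channel found in neurons, had 82.0 and 111 in DMSO and 144 and 163 in AMF, a difference of 0.68 on the log2 scale (SE 0.179, adjusted p = 0.00891). KCNMB3, of the same family, did not pass (-0.26), and 37.9% of its exon length overlaps PIK3CA.

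Inward rectifiers, which pass potassium more easily into the cell, gave 2 falls, 0 rises and 5 members that did not pass. Of all genes tested, 16.2% fell. KCNJ10, the potassium-buffering channel of glia and kidney, had 189 and 192 in DMSO and 119 and 97.9 in AMF, a difference of -0.81 on the log2 scale (SE 0.152, adjusted p = 7.51e-04). KCNJ11, the pore of the ATP-sensitive channel that couples metabolism to voltage, had 93.0 and 88.3 in DMSO and 61.3 and 43.3 in AMF, a difference of -0.80 on the log2 scale (SE 0.226, adjusted p = 0.0132). Its sulfonylurea-receptor partner ABCC8 had 0 reads in DMSO and 1.86 and 3.09 normalized counts in AMF and did not pass. KCNJ9 lies next to KCNJ10 on chromosome 1 but had a mean of 2.47 and did not pass. The class sum was 335 and 342 in DMSO and 245 and 217 in AMF.

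Tandem-pore channels carry background potassium current. KCNK13 was the highest of this class at 105 normalized counts per kb, with 244 and 288 in DMSO and 259 and 269.9 in AMF. The groups overlapped, and its log2 change was -0.0046, SE 0.118. KCNK1 was the one member of 7 that passed, while 31.8% of all genes tested did. It had 0 reads in DMSO and 10 reads in the AMF libraries together. By the floor of 3 reads it was at least 3.21-fold higher. Its call (adjusted p = 0.0404 by limma-trend) ended with voom (adjusted p = 0.0533).

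Partners and regulators of these channels, taken from a list of 34 genes of which 22 could be tested, gave 7 rises, 5 falls and 10 genes that did not pass, with a median log2 change of 0.19. The small GTPases GEM and RRAD, which bind calcium channel beta subunits and damp the current, both rose. GEM had 5.00 and 0.00 in DMSO and 10.2 and 15.5 in AMF, and RRAD 11.996 and 18.5 in DMSO and 41.8 and 43.3 in AMF (log2 changes of 2.47 and 1.45). SGK1, a kinase that raises the surface level of several ion channels, had 704 and 691 in DMSO and 175 and 183 in AMF, a log2 change of -1.95. AMIGO1, a membrane partner of Kv pores, fell by 0.49 on the log2 scale. The repressor REST, which silences sodium channel genes outside neurons, had 1540.4 and 1491 in DMSO and 1011 and 1156 in AMF (log2 change of -0.49). The calmodulin genes CALM2 and CALM3, calcium sensors of many of these channels, did not pass.

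Of 39 tested cation channel genes outside the members, 11 rose, 6 fell and 22 did not pass (median 0.22). TRPM8 (2.67), a cold-sensing channel, had 0 reads in DMSO and 4.64 and 6.18 normalized counts in AMF, and the epithelial sodium channel subunit SCNN1A had 595 and 604 in DMSO and 1508 and 1375 in AMF, a log2 change of 1.26. The polycystin PKD1 (-1.01) and the ATP-gated channel P2RX4 (-0.60) had the largest falls. Of 21 tested anion channel genes, 4 rose, 2 fell and 15 did not pass (median 0.0366), with the chloride channel proteins CLIC3 (0.68) and CLIC4 (-0.59) among them. These 3 lists moved in both directions, as did the members and all genes tested, of which 15.6% rose and 16.2% fell.

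Markers of nerve and muscle, where many members are best known, were low in all libraries. Of 10 neuron markers 7 had a row and 6 were tested, with summed levels of 76.0 and 77.0 in DMSO and 124 and 103 in AMF. MAP2 (1.60) and RBFOX3 (1.797) rose, with RBFOX3 at 1.999 and 3.08 in DMSO and 12.1 and 10.3 in AMF (with voom it did not pass, adjusted p = 0.0577), and SNAP25, SYP, SYT1 and GAP43 did not pass. Of 12 muscle markers 9 had a row and 4 were tested, with sums of 90.0 and 96.5 in DMSO and 152 and 126 in AMF, and NPPA (1.58) rose. Of 6 endothelial markers 3 were tested and 2 rose, with sums from 159 to 320.4. Of 7 stellate cell and fibroblast markers 4 were tested and COL1A1 (-3.70) and PDGFRB (-2.37) fell, with sums of 214 and 196 in DMSO and 37.1 and 26.8 in AMF. Of 6 leukocyte markers 5 were tested, with 1 higher and 2 lower. Their sums were 25451 and 24813 in DMSO and 18523 and 17597 in AMF, nearly all from the lysozyme gene LYZ. No marker with a row was at 0 in all 4 libraries. Whether a few cells of another kind contribute to the channel reads was not tested.

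Leaving out single libraries left the sign of all 28 calls in place but not the calls. With limma-trend, 9 and 8 of the 28 kept their call without DMSO replicates 1 and 2, and 0 did without AMF replicate 1 or 2, when 17 and 14 had an unadjusted p under 0.05. The prior degrees of freedom of that fit fell from 11.9 to 0.995 and 1, so the missing calls say little of single genes. With voom they were infinite without either DMSO replicate, and 2.02 and 2.03 without AMF replicates 1 and 2. An infinite prior allows no variance particular to a gene, so calls kept in those voom fits say little of single genes too. Voom on recovered reads kept 19 and 16 without DMSO replicates 1 and 2, and 3 without either AMF library, which were CACNA1H, KCNAB2 and SCN9A in both cases. These 3 genes thus passed with voom in each fit with 3 libraries. As unlogged folds, those of SCN2B and CACNG8 moved by over 1.5 times with limma-trend, each without DMSO replicate 1 or 2. Smaller log2 changes also depended on a DMSO library. That of CACNG4 was 0.37 without DMSO replicate 2 (adjusted p = 0.254), and that of CACNA2D4 was 0.19 without DMSO replicate 1 (adjusted p = 0.0833).

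**Figure D5:**
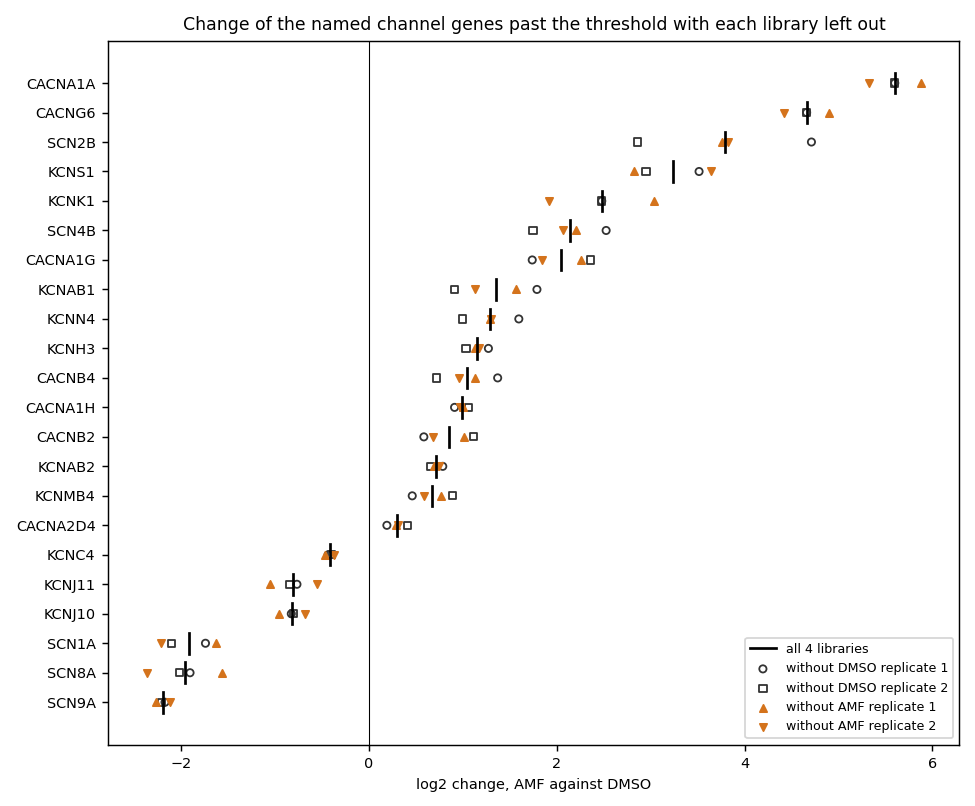
Log2 change of AMF against DMSO (horizontal axis) by limma-trend for 22 channel genes past the threshold, with all 4 libraries (black bar) and with each library left out (open symbols DMSO, filled symbols AMF). All points of a gene lie on the same side of 0, with the widest spread for SCN2B, from 2.86 to 4.71.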

How the data were processed

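RNA-seq of 4 HepG2 libraries, 2 of DMSO and 2 of AMF, was analysed from 1 table of log2 values for 30863 gene symbols. The submitters' processing notes name STAR 2.7.0, featureCounts and hg19. The annotation used and the normalization are not stated in those sources. The authors' deposited log2 values share a lowest value of 6.0085 and have the form of a variance-stabilizing transformation, which is read from the values. Undoing that transformation, with the lowest value taken as 0 reads, gave normalized counts. Divided by the worth of 1 read, 100% of them were whole to within 0.01 in every library. No column belonged to other samples.

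limma 3.58.1 in R 4.3.3 was run as limma-trend on log2(normalized count + 1), with the group as the only term, over 23828 genes with a mean of at least 1 and Benjamini-Hochberg adjustment over all of them. This was the planned test for log-scale values. Fold changes on this scale understate those of low genes. The tests were tried on simulated counts. Ratio intervals are 95% exact binomial on reads and cover counting error only. The floor for genes with 0 reads in DMSO was 3 reads over both DMSO libraries together. In a single library, 3 reads are 2.79 to 3.09 normalized counts. Folds against this floor take the AMF reads as counted and are not lower limits. The members, gene lists and motifs were chosen with earlier results of these data known. Named genes were, among called members averaging 10 or more, up to 14 that rose most and up to 14 that fell most (14 and 8 met this), the highest member of each class by level and per kb, the genes beside the limit of 1, and genes with 0 reads in 1 group and a mean of at least 3 in the other. From each related list came up to 2 rises and 2 falls, and others were added after their values were seen. Results of some genes that this rule names are not reported here. Lengths and exon overlaps are from GENCODE release 29, promoters from RefSeq, both on GRCh38, whereas the files use hg19. Exons of 13 of the 28 called members overlap another gene there, and without strand such reads cannot be told apart. Figures used matplotlib 3.10.9.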

Additional observations from a re-analysis of the deposited data

How the results depend on the processing

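All 28 calls kept their sign in each of the alternatives in which the gene was tested, which were a pseudocount of 0.1, no filter, a mean of at least 10, the deposited log2 values, library totals as scaling, voom on recovered reads, the replicate block, and each library left out with limma-trend and with voom. Against 19 higher and 9 lower members, 19 and 9 were called with the deposited log2 values and with library totals, 18 and 8 with voom, 16 and 8 with a pseudocount of 0.1, and 16 and 9 both without a filter and over members with a mean of at least 10. With each library left out, limma-trend called 0 to 8 members higher and 0 to 1 lower, and voom called 2 to 12 higher and 1 to 8 lower, with the lowest counts without AMF replicate 1 or 2. With a further limit of 1 on the size of the log2 change, the 9 falls came to 4. The median log2 change of the members, 0.53, was 0.72 with a pseudocount of 0.1, 0.12 on the deposited log2 values, which compress low counts, and 0.32 over the 46 members with a mean of at least 10. With a library left out it ran from 0.36 to 0.68 with limma-trend and from 0.35 to 0.79 with voom. The median was positive in each of these.

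The labels number the replicates alike in both groups, but same-numbered libraries did not deviate together (correlation of their deviations -0.00715 over 23828 genes), so the numbers are not taken as pairs. With the replicate block, 21 members were higher and 11 lower, the 28 calls all stayed, and 4 were added, KCNE3, KCNJ5 and KCNN1 among them. The prior degrees of freedom of the block fit were infinite, so its calls assume no variance particular to a gene. Depth limits the 33 members with a mean under 10, in which a change of a few reads decides the value. The number of libraries, 2 per group, limits the rest.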
